A study of Mus musculus with 2 samples.

Results

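Remote intergenic peaks are described here: DNase-hypersensitive regions of the embryonic mouse limb that lay in no annotated gene of any type and 100 to 500 kb from the nearest start of a protein-coding transcript. They were taken from the shared peaks, which are overlapping peaks of both libraries merged into 1 region (overlap of at least 1 bp, chromosomes 1 to 19). Of 115658 shared peaks, 11974 met this rule, or 10.4% (Wilson 95% interval 10.2 to 10.5). The rule used position and presence in both libraries, and no signal value. The mean G+C content, sites, spacing, signal and neighbouring genes of these regions were not used to choose them.

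The study measured open chromatin by DNase-seq, in which the enzyme DNase I cuts accessible DNA, in 2 biological replicates of limb tissue from B6NCrl mouse embryos at 11.5 days. Both replicates pooled male and female embryos, name the same donor record and belong to 1 untreated group, so no condition can be compared. The labels do not divide the tissue into forelimb and hindlimb, and instrument models are named for replicate 2 alone, 2 of them. Depth is unknown for both libraries, as no read counts were at hand, and fewer open cells cannot be told apart from less cutting per cell.

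Genes that pattern the embryo are often flanked by long stretches without genes, called gene deserts. Such stretches hold enhancers, short DNA elements bound by transcription factors, which contact promoters across great distances through looping of the chromatin fibre. CTCF, a zinc finger protein, binds an oriented site and holds the bases of many such loops. Mouse limb genes with known remote enhancers include Sox9, a chondrogenic factor, Shox2, a factor of proximal limb growth, and the Hoxd genes, which specify segments and digits. The nearest start says where a peak lies and does not show which gene, if any, it acts on.

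In the labelled tissue, 9 of 10 limb mesenchyme markers on chromosomes 1 to 19 had a shared peak within 1 kb of a coding start, Prrx1, Twist1, Tbx4 and Tbx5 among them and Hoxd13 not. The background is high, at 68.1% of 20693 protein-coding genes. Of markers of other cell types, 4 of 7 for ectoderm, 2 of 4 for muscle, 1 of 5 for endothelium and 4 of 4 for neural tissue had such a peak, against 0 of 3 for erythroid cells, 0 of 5 for macrophages and 0 of 4 for liver. The part of each cell type in the remote peaks was not tested.

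The 5 remote intergenic peaks of highest signal are shown first, with every CpG in capitals, since CpG-rich sequence marks promoters of many vertebrate genes. Sequences are of the plus strand of mm10 (GRCm38), each named by the gene with the nearest coding start.
Nfe2l3 (chr6:51178616-51178765): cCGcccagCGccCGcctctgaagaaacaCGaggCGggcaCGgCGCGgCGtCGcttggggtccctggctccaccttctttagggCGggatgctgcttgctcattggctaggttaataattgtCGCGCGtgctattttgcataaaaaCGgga
Pcmtd1 (chr1:7398076-7398225): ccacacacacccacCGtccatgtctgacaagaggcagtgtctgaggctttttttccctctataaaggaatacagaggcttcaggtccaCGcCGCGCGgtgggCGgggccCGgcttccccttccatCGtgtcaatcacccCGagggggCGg
Smim15 (chr13:107890136-107890425): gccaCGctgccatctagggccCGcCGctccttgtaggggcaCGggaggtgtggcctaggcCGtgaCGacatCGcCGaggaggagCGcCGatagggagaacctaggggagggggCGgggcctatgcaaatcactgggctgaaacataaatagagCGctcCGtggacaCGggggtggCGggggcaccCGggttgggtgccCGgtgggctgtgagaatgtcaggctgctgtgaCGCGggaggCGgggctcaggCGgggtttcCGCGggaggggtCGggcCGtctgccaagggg
Zfat (chr15:68363316-68363485): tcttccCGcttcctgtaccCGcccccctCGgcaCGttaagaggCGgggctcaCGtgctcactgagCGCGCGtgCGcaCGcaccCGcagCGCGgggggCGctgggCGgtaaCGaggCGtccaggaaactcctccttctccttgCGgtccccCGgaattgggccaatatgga
Tle3 (chr9:61618576-61618745): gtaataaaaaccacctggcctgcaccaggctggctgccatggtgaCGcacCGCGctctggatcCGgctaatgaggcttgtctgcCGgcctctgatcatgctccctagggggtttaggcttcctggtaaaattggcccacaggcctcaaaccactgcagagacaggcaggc
The 1st, of 150 bp and 60% G+C, lay 254 kb upstream of Nfe2l3, a bZIP transcription factor gene, with a signal of 130 in replicate 1 and 132 in replicate 2. The signal is the authors' value per peak, a whole number from 2 to 150 with unstated scaling, and serves here to rank peaks within a library. The 2nd, at 130 and 127, lay 309 kb downstream of a start of Pcmtd1 and 0.282 kb from the start of an annotated long noncoding transcript. The 3rd (123 and 132) and the 4th (121 and 132) also lay beside such starts, at 0.217 kb and 0.225 kb. In RefSeq, a second annotation, the 3rd lay 0.217 kb from an mRNA start. The 5th (127 and 124), 243 kb downstream of Tle3, a Groucho-type corepressor gene, had no such start within 1 kb. Thus 3 of the 5 strongest regions lay beside the start of another transcript.

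Across all remote peaks that position was rare. Of 11974, 202 lay within 1 kb of a GENCODE long noncoding start (1.69%), 33 within 1 kb of a RefSeq mRNA start and 528 within 1 kb of either kind or of a RefSeq noncoding start (4.41%). Those 528 had a G+C content of 51.2% ± 7.63 (SD over regions), against 47.2% ± 6.36 in the other 11446. Their share at or above percentile 90 of signal in both libraries was 7.95% (42 regions, Wilson 95% interval 5.94 to 10.6), against 2.52% in the others (289 regions, 2.25 to 2.83). Among the 100 remote peaks of highest signal, 18 lay beside such a start and 82 did not. A region was called CpG-rich at 55% G+C and an observed to expected CpG ratio of 0.6. Of the remote peaks 182 were CpG-rich (1.52%), against 17.3% of all shared peaks, and the share was 7.58% beside another start and 1.24% elsewhere.

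Remote peaks became sparser with distance from coding genes. Eligible sequence means the known bases of chromosomes 1 to 19 that meet the same position rule, 434 Mb in all. Remote peaks numbered 27.6 per Mb of it, against 51.5 per Mb at 1 to 10 kb, 42.4 per Mb at 10 to 100 kb and 10.5 per Mb beyond 500 kb, each in its own intergenic sequence. In steps of 100 kb the density was 33.3, 26.9, 22.8 and 18.7 per Mb, so that it was lower in each step than in the one before. The libraries alone had 18411 peaks (42.4 per Mb) in replicate 1 and 18000 (41.5 per Mb) in replicate 2 in this class. Upstream of the nearest coding start lay 50.3% of remote peaks (49.4 to 51.2), against 54.4% of the eligible sequence. The smallest and largest shares of a chromosome's shared peaks that were remote were 6.65% on chromosome 11 and 15.1% on chromosome 13.

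**Figure D1:**
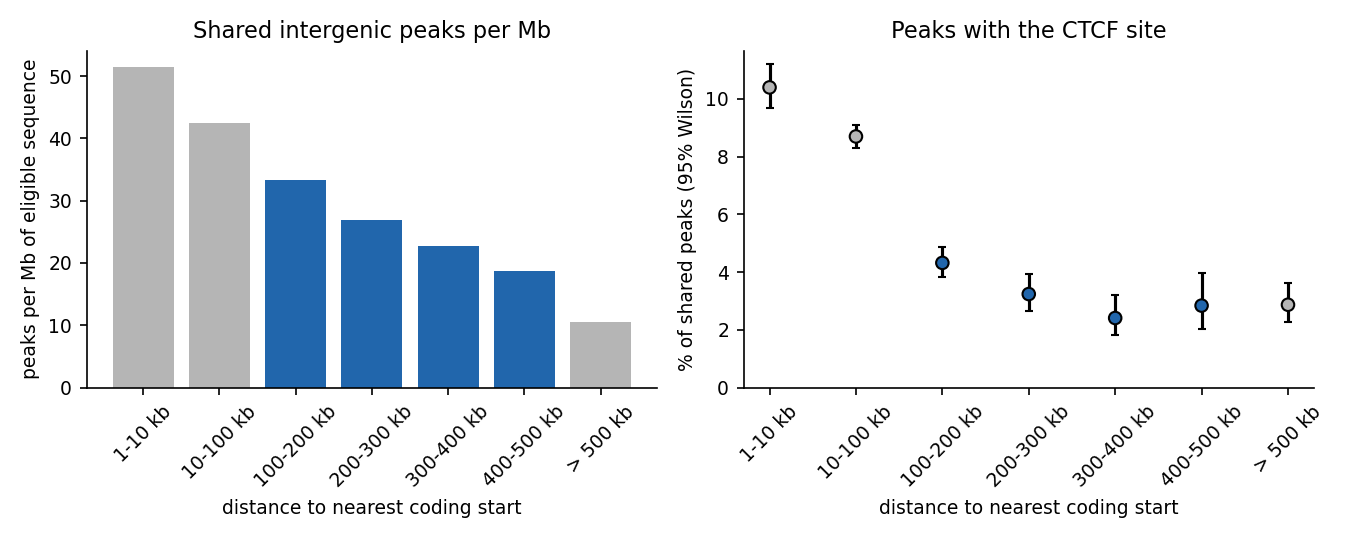
Shared intergenic peaks per Mb of eligible sequence (left, bars) and the percent of them with the CTCF site (right, points with 95% Wilson intervals), by distance to the nearest coding start; blue marks the remote intergenic peaks and grey the other distances. Density was lower at each further step, at 33.3 per Mb for 100 to 200 kb and 18.7 per Mb for 400 to 500 kb.

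Peaks of this class were found in the other library slightly less often than peaks overall. In replicate 1, 66.9% of its 18411 peaks had a partner (66.2 to 67.5), against 69.9% of all 170134 peaks. In replicate 2, 68.8% of 18000 did (68.1 to 69.4), against 73.2% of all 163248. Within signal quartiles of the library the order was otherwise: in the top quartile 98.3% and 98.5% of remote peaks in replicates 1 and 2 had a partner, against 96.9% and 97.4% of all peaks. In the lowest quartile the shares were 36.5% and 36.4%, against 35.0% and 36.3%. Presence in both libraries was part of the rule, so these shares describe the pool the remote peaks came from.

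Remote peaks had moderate signal. Each signal was given its percentile among all peaks of its library. The median of the remote peaks was 53.6 in replicate 1 and 52.1 in replicate 2, against 63.2 and 63.1 for all shared peaks, 62.0 and 59.3 for intergenic peaks at 10 to 100 kb, and 43.2 and 41.3 beyond 500 kb. Peaks inside genes at the same 100 to 500 kb from a coding start were at 55.2 and 52.1, close to the remote peaks in both libraries. At or above percentile 90 were 4.78% and 3.45% of remote peaks, against 14.2% and 13.9% of all shared peaks. Signals of the 2 libraries ranked the remote peaks alike, with a Spearman correlation across regions of 0.869, given as a description since regions are not replicates. Hotspots, the wider regions of enriched cutting that the authors deposited with a −log10 q value, covered every remote peak in both libraries. The hotspot value stood at its ceiling of 100 for 47.3% of remote peaks in replicate 1 and 43.0% in replicate 2, against 57.7% and 55.9% of all shared peaks.

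**Figure D2:**
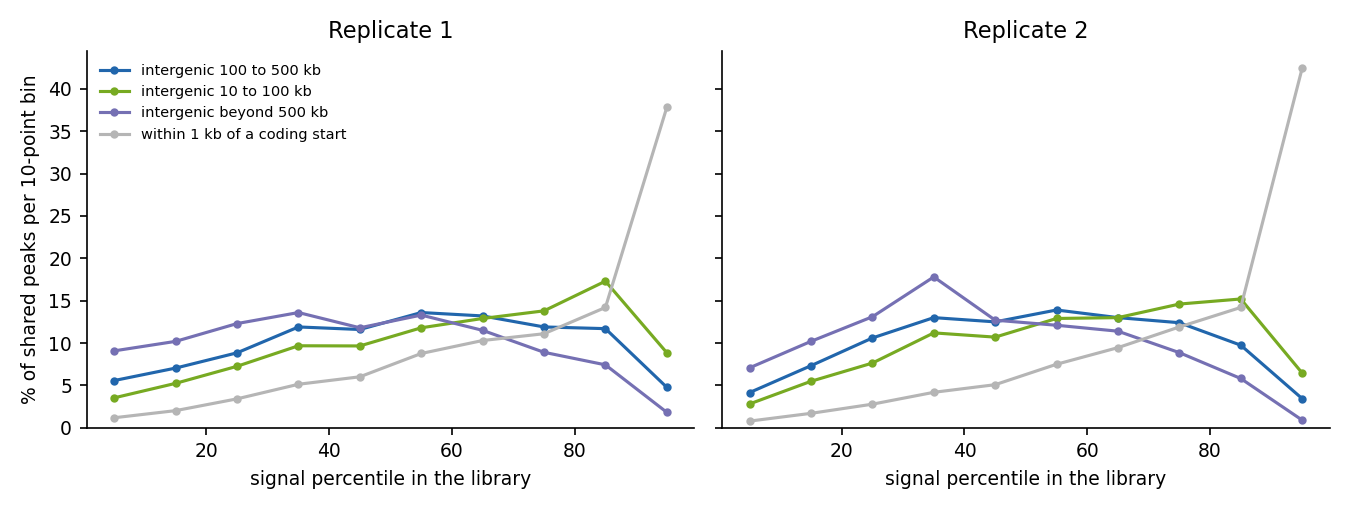
Percent of shared peaks in each 10-point bin of the within-library signal percentile, for replicate 1 (left) and replicate 2 (right); lines stand for remote intergenic peaks (100 to 500 kb), 2 other intergenic classes and peaks within 1 kb of a coding start. Of remote peaks, 4.78% (replicate 1) and 3.45% (replicate 2) lay in the top bin.

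Values at the edges of the distance rule are given as a description. Just inside 100 kb were regions 100015 bp from a start of Sntn (signals 95 and 78) and 100018 bp from Speer3 (32 and 27). Just outside lay regions at 99997 bp from A530016L24Rik (31 and 29) and 99995 bp from Cbln4 (36 and 34). Just inside 500 kb were regions 499975 bp from Cdk5rap2 (31 and 35) and 499536 bp from Sulf1 (34 and 29), and the nearest one outside lay 500126 bp from Dcdc2c (30 and 19).

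The sequence of remote peaks was richer in G+C and poorer in repeats than its surroundings. The central 150 bp held 47.4% G+C (SD over regions 6.48), against 42.4% in windows of the same length 500 bp to either side and 40.1% in eligible sequence without a peak. Bases masked as repeats made up 8.43% of remote peaks, against 20.2% of the flanks and 38.0% of eligible sequence without a peak. G+C content was lower with distance, from step to step, at 48.1%, 47.2%, 46.3% and 45.9%, differences smaller than the SD over regions.

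The CTCF site, searched on both strands with a consensus word, stood in 432 remote peaks, or 3.61% (Wilson 95% interval 3.29 to 3.96), against 0.0710% of the flanks and 0.0221% of eligible windows without a peak. The ratio to the flanks was 50.8 (95% interval 31.3 to 82.5). The share was lower than in all shared peaks, of which 5.44% held the site, and lower than at 10 to 100 kb (8.70%) and 1 to 10 kb (10.4%). It was close to the share beyond 500 kb (2.87%) and inside genes at the same distance (3.62%). Within the range it was 4.32% at 100 to 200 kb, 3.24% at 200 to 300 kb, 2.41% at 300 to 400 kb and 2.84% at 400 to 500 kb. The intervals reflect the number of regions alone and take neighbours as independent, which they are not.

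Remote peaks with the CTCF site were strong. Their median signal was 72.0 in replicate 1 and 56.0 in replicate 2 (percentiles 77.9 and 71.3), against 48.0 and 39.0 (52.1 and 50.5) in the 11542 without it. Hotspots at the ceiling covered 86.1% and 78.2% of them in the 2 replicates, against 45.8% and 41.7% of the others. By mean percentile, 1.76% of remote peaks at 40 to 50 held the site, 7.31% at 70 to 80, 9.77% at 80 to 90 and 7.25% (5.21 to 10) at 90 to 100. The site pointed toward the nearest coding start in 199 of 432 (46.1%, 41.4 to 50.8), an interval that includes an equal split. The 3 remote peaks of highest signal with the site follow, with the matched bases in capitals. In all of them the match reads on the minus strand.
Tm2d1 (chr4:98243636-98243785): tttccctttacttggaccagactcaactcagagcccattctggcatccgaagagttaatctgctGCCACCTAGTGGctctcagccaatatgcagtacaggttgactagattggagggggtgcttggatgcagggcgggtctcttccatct
Mtx2 (chr2:74964476-74964625): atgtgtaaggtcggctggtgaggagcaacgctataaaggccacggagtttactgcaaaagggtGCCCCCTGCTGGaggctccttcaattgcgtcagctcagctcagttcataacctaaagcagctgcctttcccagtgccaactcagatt
Zpld1 (chr16:55469176-55469345): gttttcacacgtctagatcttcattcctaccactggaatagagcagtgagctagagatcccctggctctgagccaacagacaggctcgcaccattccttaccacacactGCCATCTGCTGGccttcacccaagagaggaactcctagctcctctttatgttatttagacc
The 1st, 139 kb downstream of Tm2d1, had signals of 113 and 102. The 2nd, 139 kb downstream of Mtx2 beside the HoxD cluster, had 117 and 95, and the 3rd, 171 kb upstream of Zpld1, had 110 and 96. All 3 lay above the 90th percentile in both libraries.

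Besides CTCF, 26 words for other factors were counted in the same windows. Of these, 14 had a share at least 1.5 times that of the flanks with an interval above 1. The commonest were E-boxes, the sites of basic helix-loop-helix factors such as TWIST1 and HAND2, which pattern limb mesenchyme. CATCTG stood in 2695 remote peaks (22.5%, against 11.6% of flanks and 17.1% of all shared peaks), a ratio of 1.94 (1.85 to 2.04). CAGCTG stood in 2101 (17.5%, against 6.16% and 15.1%), a ratio of 2.85 (2.67 to 3.03). The third E-box, CATATG, stood in 4.66% of remote peaks, against 4.28% of flanks and 2.95% of all shared peaks, with a ratio of 1.09 whose interval included 1 (0.984 to 1.20).

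Words for effectors of limb signalling were also commoner than in flanks. GLI factors carry the Hedgehog signal that sets the order of the digits. Their word TGGGTGGTC stood in 38 remote peaks (0.317%, against 0.0668% of flanks and 0.235% of all shared peaks), a ratio of 4.75 (2.65 to 8.52). TCF and LEF factors carry the Wnt signal, and their word CTTTGATC stood in 134 (1.12%, against 0.568% and 0.738%), a ratio of 1.97 (1.55 to 2.50). For posterior HOX proteins, which shape the distal limb, CCAATAAA stood in 178 (1.49%, against 0.864% and 0.895%), a ratio of 1.72 (1.41 to 2.10). For HOX and PBX dimers ATGATTTAT stood in 86 (0.718%, against 0.376% and 0.313%), a ratio of 1.91 (1.42 to 2.57). For T-box factors AGGTGTGA stood in 124 (1.04%, against 0.585% and 0.698%), a ratio of 1.77 (1.39 to 2.25). These 4 words of TCF, HOX, HOX with PBX and T-box factors stood in a larger share of remote peaks than of all shared peaks, in contrast with the CTCF site. That was not particular to them. It held for the E-box, GLI, SOX, GATA and TAATTA words and for the control word (0.0752%, against 0.0441%). The words of REST, ETS, AP-2, EBF and NRF1 factors went the other way. Mean G+C content was 47.4% in remote peaks and 52.8% in all shared peaks, and its part was not tested.

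Words of epithelial and other factors varied in share and ratio. The word GCCNNNGGC of AP-2 factors, which act in ectoderm and mesenchyme, stood in 5.10% of remote peaks, against 2.28% of flanks (ratio 2.23, 1.99 to 2.50) and 8.16% of all shared peaks. AACCNGTT, the site of grainyhead factors of surface epithelium, stood in 1.49%, against 0.981% of flanks (ratio 1.52, 1.26 to 1.85) and 1.31% of all shared peaks. CCGGAAGT, the ETS word, was found in 28 remote peaks (0.234%), against 0.138% of flanks and 1.05% of all shared peaks. The EBF site had a ratio of 2.10, the NFI site of 26.0 from 13 remote peaks and 1 flank window, and the RFX site of 12.5 from 25 and 4. Against flanks 1000 bp away these were 8.67 for NFI and 50 for RFX, so neither their sizes nor their order are settled. The site of REST, which silences neuronal genes, stood in 18 remote peaks and 0 of 23948 flank windows, at least 12 times the floor of 3 windows (0.0125%). The control word with no chosen factor, CTAACGTA, gave 9 remote peaks and 3 flank windows, a ratio of 6.0 (1.62 to 22.2). It met the limits set above, so ratios that rest on a few windows carry little weight.

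Several words, limb-related ones among them, stayed below the 1.5-fold level. TAATCC, for PITX and OTX factors, stood in 5.09% of remote peaks, against 5.28% of flanks (ratio 0.964, 0.878 to 1.06) and 4.10% of all shared peaks. Ratios to flanks were 1.24 (1.17 to 1.32) for the MEIS word, 1.36 (1.22 to 1.52) for RUNX and 1.36 (1.27 to 1.45) for TEAD. ACAATGG, for SOX factors, stood in 2.10% of remote peaks and of flanks alike (ratio 1.00, 0.861 to 1.16), against 1.68% of all shared peaks. AGATAA, for the GATA factors of blood and heart, stood in 4.13% of remote peaks, against 10.2% of flanks (ratio 0.406, 0.369 to 0.446) and 3.43% of all shared peaks. TAATTA, the core of many homeodomain sites, stood in 7.24%, against 6.26% of flanks (ratio 1.16, 1.07 to 1.25) and 4.42% of all shared peaks. G+C content moved with these ratios. Set against eligible windows without a peak weighted to the G+C of the remote peaks, TAATTA stood at 2.86 times and GATA at 0.581 times, while CAGCTG stood at 2.44, CATCTG at 1.73, GLI at 2.16, TCF at 2.21 and grainyhead at 1.43 times. In that comparison SOX stood at 0.733 times and the control word, in 9 remote peaks, at 2.70 times, above all of these but TAATTA.

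**Figure D3:**
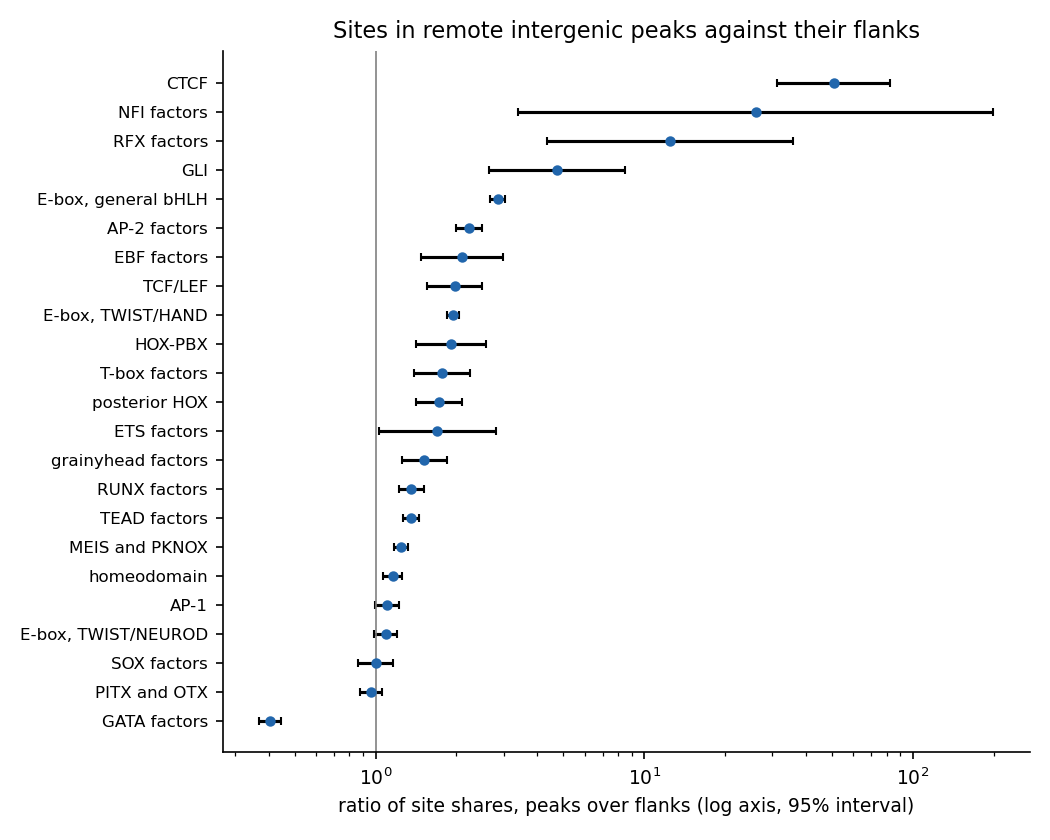
Ratio of the share of remote intergenic peaks with each site to the share of windows 500 bp away (points, log axis) with 95% intervals over windows (bars), for sites in at least 10 remote peaks and with any flank match. The CTCF site stood at 50.8 and the GATA site at 0.406. The grey line marks an equal share, and the control word, in 9 remote peaks, is not shown.

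The remote peaks of highest signal with each of the 6 commonest words past the 1.5-fold level are shown with the matched bases in capitals; 1 of them holds both the CATCTG and the AP-2 word. In order they carry CATCTG (as its reverse complement CAGATG) with AP-2, CAGCTG, grainyhead, posterior HOX and TCF words.
Efcab1 (chr16:15052996-15053165): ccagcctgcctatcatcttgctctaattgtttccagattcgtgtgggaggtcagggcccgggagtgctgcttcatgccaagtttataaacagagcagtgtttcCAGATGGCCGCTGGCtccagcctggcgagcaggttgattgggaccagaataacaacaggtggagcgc
Spata18 (chr5:73782796-73782965): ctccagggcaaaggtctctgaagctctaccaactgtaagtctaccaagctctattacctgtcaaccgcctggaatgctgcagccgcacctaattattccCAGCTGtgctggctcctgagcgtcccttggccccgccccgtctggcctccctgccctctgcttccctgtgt
Sox11 (chr12:27563976-27564185): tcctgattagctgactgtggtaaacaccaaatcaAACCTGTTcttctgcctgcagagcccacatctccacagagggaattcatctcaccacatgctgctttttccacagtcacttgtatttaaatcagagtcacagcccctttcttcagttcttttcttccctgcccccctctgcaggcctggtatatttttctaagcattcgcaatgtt
Olfm4 (chr14:80176556-80176745): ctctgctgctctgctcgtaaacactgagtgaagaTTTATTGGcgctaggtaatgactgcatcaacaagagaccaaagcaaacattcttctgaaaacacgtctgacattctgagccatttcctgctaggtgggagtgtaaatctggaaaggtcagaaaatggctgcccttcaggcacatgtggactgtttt
Cbln4 (chr2:171734656-171734825): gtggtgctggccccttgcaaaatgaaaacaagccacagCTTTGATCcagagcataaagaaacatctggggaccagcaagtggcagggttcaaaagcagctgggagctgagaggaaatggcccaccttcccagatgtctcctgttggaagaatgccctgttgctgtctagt
The region near Efcab1 had signals of 123 and 122, that near Spata18 123 and 110, and that near Sox11, 222 kb from the start of this neural and mesenchymal factor, 101 and 108. The region near Olfm4 had 106 and 93, and that near Cbln4, 309 kb downstream, 122 and 100.

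E-boxes and homeodomain words stood at a fixed spacing in part of the remote peaks. A composite of the kind is known from limb and face mesenchyme, where TWIST1 binds beside homeodomain factors. This spacing was looked for after the single words had been counted. Its gap was taken as the most frequent one in these same remote peaks. The share, ratio and interval below therefore describe the pattern and are no test of it. With the E-box CAGATG, the reverse complement of CATCTG, read forward, the homeodomain word TAATT preceded it with a gap of 5 bases in 44 pairs, out of 644 pairs at any spacing within the window. The next most frequent spacing had 14 pairs, and the median over other spacings within 50 bases was 4.0. The word TAATTNNNNNCAGATG stood in 44 remote peaks (0.367%, 0.274 to 0.493), against 0.0626% of flanks, a ratio of 5.87 (3.27 to 10.5), and 0.0122% of eligible windows. All shared peaks held it at 0.198% (0.174 to 0.225) and peaks within 1 kb of a coding start at 0.0112%. Intergenic peaks at 10 to 100 kb held it at 0.245% (0.184 to 0.327), whose interval overlaps that of the remote peaks. So do the intervals beyond 500 kb (0.348%, 0.176 to 0.685) and inside genes at 100 to 500 kb (0.274%, 0.184 to 0.407). The ratio to flanks was higher at 10 to 100 kb (11.5) and in all shared peaks (9.16) than in remote peaks. It was also higher at 1 to 10 kb and inside genes. Beyond 500 kb (5.33) and within 1 kb of a coding start (1.20) it was lower. The intervals of these ratios all overlap that of the remote peaks. Among remote peaks, the median signal percentile was 57.3 and 52.8 with the word, against 53.6 and 52.1 without. The 3 of highest signal are shown with both words in capitals.
Sox9 (chr11:113014336-113014485): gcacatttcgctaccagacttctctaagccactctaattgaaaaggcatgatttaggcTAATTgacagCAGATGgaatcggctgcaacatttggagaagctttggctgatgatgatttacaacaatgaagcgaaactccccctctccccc
Rbms3 (chr9:116556836-116556985): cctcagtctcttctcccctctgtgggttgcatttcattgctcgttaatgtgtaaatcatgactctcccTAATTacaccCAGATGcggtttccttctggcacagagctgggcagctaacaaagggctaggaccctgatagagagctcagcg
Rack1 (chr11:48314636-48314805): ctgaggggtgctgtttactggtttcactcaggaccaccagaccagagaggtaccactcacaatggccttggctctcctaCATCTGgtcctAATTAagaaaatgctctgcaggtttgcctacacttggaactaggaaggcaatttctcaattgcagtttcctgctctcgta
The 1st lay 232 kb downstream of Sox9, with signals of 109 and 103, and had the highest mean percentile of the 35 remote peaks of Sox9. The 2nd lay 266 kb downstream of Rbms3, which encodes an RNA-binding protein (99 and 89), and the 3rd 486 kb upstream of Rack1 (99 and 83). The 44 regions had 42 different nearest genes. Of the 44, 0 had a nearest gene on the list of limb mesenchyme transcription factors given below. Such genes were nearest to 359 of all 11974 remote peaks.

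Many remote peaks had another nearby. Another remote peak lay within 10 kb of 62.4% of them (61.5 to 63.2), against 66.6% at 10 to 100 kb and 46.9% beyond 500 kb for peaks of the same class. Such shares depend on density, which was 27.6, 42.4 and 10.5 per Mb in that order. They were not compared with an even spread, so their order does not rank the classes by grouping. At 5, 20 and 50 kb the shares of remote peaks were 49.1%, 75.9% and 90.3%. No other shared peak of any class lay within 10 kb of 35.5% of remote peaks. Of windows of 100 kb, 3986 held a remote peak, 1356 of them only 1, and 816 held 5 or more, with 47.5% of all remote peaks.

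The densest window lay on chromosome 6 from 51100001 to 51200000, with 30 remote peaks, 48 library peaks in replicate 1 and 39 in replicate 2. All 30 had Nfe2l3 as the nearest start, 235 to 314 kb away, and their median percentile was 80.7 in replicate 1 and 78.1 in replicate 2. The window includes the region of highest signal shown first. The next 4 windows held 16 each. They lay on chromosome 2 from 74200001 to 74300000, between Atp5g3 and Lnpk, on chromosome 4 from 9000001 to 9100000, near Chd7 and Clvs1, on chromosome 7 from 37300001 to 37400000, near the zinc finger gene Zfp536, and on chromosome 8 from 26600001 to 26700000, near Zfp703. Their library peaks numbered 20 and 20, 28 and 17, 19 and 24, and 21 and 32 in replicates 1 and 2.

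Few genes were nearest to remote peaks, and a small number of these had many. Of 20780 protein-coding genes, 2647 had eligible sequence and 1935 had at least 1 remote peak (9.31%). Among genes with any, the median was 4.0 and the maximum 66. The 417 genes with 10 or more held 55.4% of remote peaks in 29.9% of the eligible sequence. Among 1309 genes with at least 100 kb of eligible sequence the median density was 22.5 per Mb (quartiles 8.52 and 42.8), and 117 had no remote peak.

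Zfp608, a zinc finger gene on chromosome 18, had the most, with 66 remote peaks in 697 kb of eligible sequence. Replicate 1 alone had 100 and replicate 2 alone 94. Nr2f2, a nuclear receptor gene (chromosome 7, 70351944 to 70366735), had 51, with 77 and 63 in the libraries alone. Nfe2l3 (chromosome 6, 51432670 to 51458768) had 43 in 285 kb, 151 per Mb, with 79 and 53 in the libraries alone, the widest gap between replicates among the leading genes (mean ± SD 66.0 ± 18.4, n = 2). With hotspots in place of peaks Nfe2l3 had 26, fewer than Sall1 and Sox9 with 34 each. Med13l, a subunit of the Mediator coactivator complex, had 42 (57 and 60), Csnk1g3, a casein kinase gene, 39 (67 and 59), and Slc4a3, an anion exchanger gene, 38 (64 and 48). Lrig3 had 38 (55 and 54), Sall1, a zinc finger gene known from kidney and limb development, 37 (50 and 46), and Zmiz1, a transcriptional coactivator, 36 (48 and 46). Sox9 had 35 (59 and 54), and Mki67, Tbx3 and Tle4 had 34 each (46 and 48, 47 and 46, 43 and 44). Mtx2 and Cxcl12, a chemokine gene, had 33 each (38 and 43, 46 and 44). With only protein-coding gene bodies removed, Mtx2 had 54. These 15 genes held 4.95% of all remote peaks. Nr2f2, Sall1, Sox9 and Tbx3 are transcription factors with known roles in the limb.

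**Figure D4:**
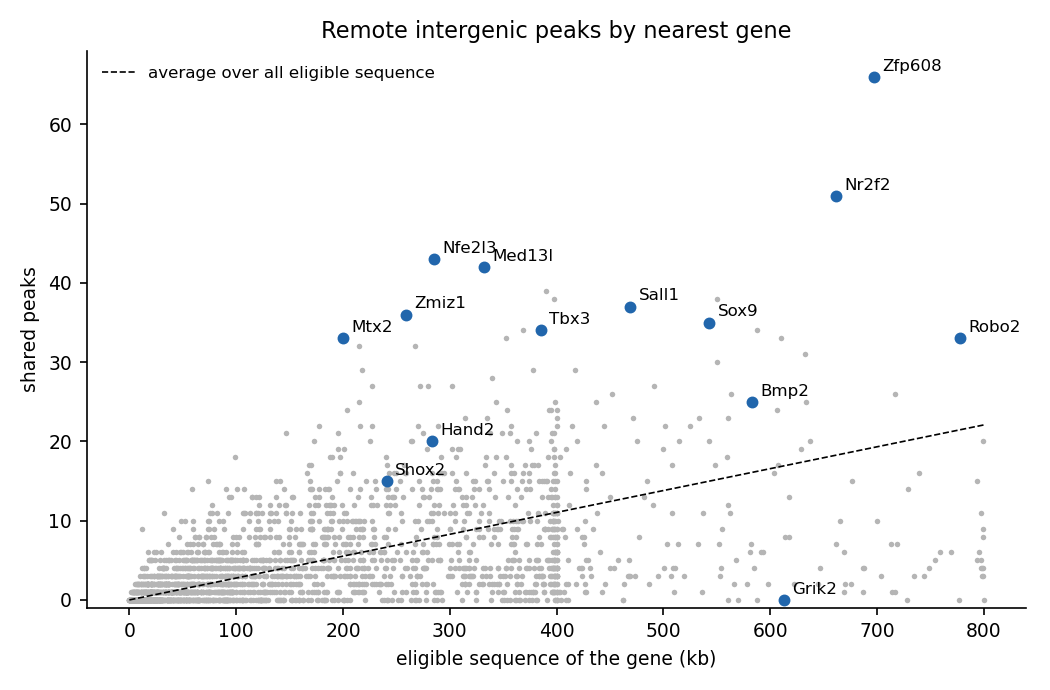
Shared remote intergenic peaks per nearest gene (y) against the gene's eligible sequence (x, kb); each point is a gene with eligible sequence, named genes are blue, and the dashed line is the average density of 27.6 per Mb. Zfp608 stood highest at 66, and Grik2, with 613 kb, had none.

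Members of the fixed set of limb genes differed in whether a remote stretch existed at all. Sox9 (chromosome 11, 112782224 to 112787760) had 22 of its 35 remote peaks upstream and 13 downstream, from 103 to 499 kb. Their signals ran from 28 to 109 in replicate 1 (median 50) and from 20 to 103 in replicate 2 (median 41.0). After the one shown above, its strongest lay 370 kb upstream (97 and 92) and 332 kb upstream (95 and 86). Bmp2, a bone morphogenetic protein (chromosome 2, 133552159 to 133562885), had 25, of which 11 lay upstream, with signals of 29 to 93 (median 52.0) and 19 to 83 (median 40). Its strongest lay 153 kb upstream (93 and 83).

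Hand2, a basic helix-loop-helix factor of the posterior limb bud (chromosome 8, 57320983 to 57324633), had 20, all upstream and 111 to 362 kb away, with signals of 30 to 96 (median 54.5) and 20 to 83 (median 46.5). Tbx3, a T-box factor of the limb margins (chromosome 5, 119670669 to 119684724), had 34, all upstream, with signals of 24 to 108 and 24 to 107. Its strongest lay 320 kb upstream (108 and 107). Shox2 (chromosome 3, 66971727 to 66981771) had 15, all downstream, of 33 to 90 and 26 to 89. Sall1 had 33 upstream and 4 downstream, and Nr2f2 31 and 20. Eligible sequence was not split by side for each gene. A side without remote peaks may therefore hold no eligible sequence, as the position rule alone could bring about. Pitx1, Grem1, Sall4 and Fgf8 had no eligible sequence, and Bmp4 and Msx1 had 11.7 kb and 7.08 kb of it with no remote peak. With 1 start per gene in place of all transcript starts the count of Shox2 was 0, while Sox9, Bmp2, Hand2 and Tbx3 kept 35, 25, 20 and 34. A count of 0 can mean that another gene then had the nearest start, and it does not show that the regions stopped being remote.

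**Figure D5:**
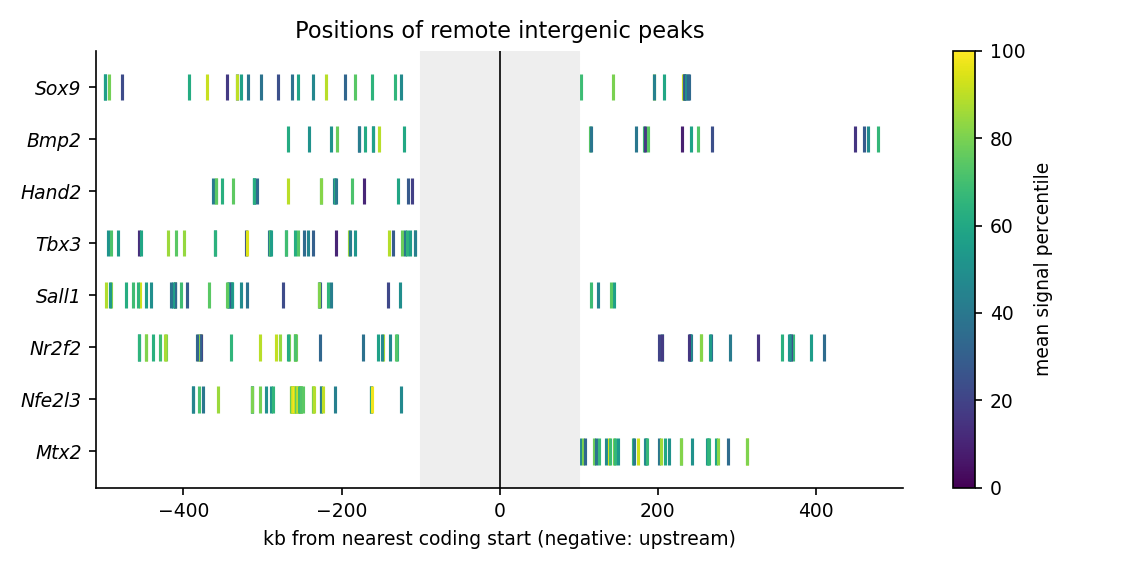
Positions of remote intergenic peaks (ticks) around the nearest coding start of 8 genes (x, kb, negative upstream), coloured by the mean signal percentile over both libraries; grey marks the 100 kb to either side outside the distance range. The 20 peaks of Hand2 and the 34 of Tbx3 lay upstream, and the 33 of Mtx2 downstream. Eligible sequence was not split by side for each gene, so an empty side may hold none.

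Gene deserts beside clustered or patterning genes could be followed between neighbouring coding genes. These intervals were chosen after the counts per gene were seen. None of the 16 posterior and distal Hox genes on the list had eligible sequence. Other genes stand closer to the deserts on both sides of the HoxD cluster, which are known in the mouse to hold limb enhancers of Hoxd genes. Between Mtx2 and Hnrnpa3 (chromosome 2, 74878432 to 75659260) lay 60 remote peaks in 427 kb of eligible sequence, 141 per Mb, with 71 library peaks in replicate 1 and 84 in replicate 2. Their signals ran from 37.0 to 117 (median 57.5) and from 26.0 to 99.0 (median 51.0). Between Atp5g3 and Lnpk (73911327 to 74520290) lay 42 in 441 kb, 95.2 per Mb, with 67 and 53 library peaks, signals of 29.0 to 111 (median 46.5) and 17.0 to 98.0 (median 43.0). Both densities stood above the average of 27.6 per Mb.

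Between Npvf and Nfe2l3 on chromosome 6 (50654440 to 51432669) lay 72 remote peaks in 502 kb, 143 per Mb, with 115 and 87 library peaks. Their median percentile was 72.8 in replicate 1 and 73.5 in replicate 2, against 53.6 and 52.1 for all remote peaks. Between Med13l and Tbx3 on chromosome 5 (118765439 to 119670668) lay 68 in 659 kb, 103 per Mb, with 93 and 96 library peaks and median percentiles of 57.3 and 57.3. The CTCF site stood in 2 of the 60, 1 of the 42, 3 of the 72 and 3 of the 68, against 3.61% of all remote peaks. These counts are too small to tell the intervals apart from that share.

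The gene lists differed in density. Over all protein-coding genes the density was 27.6 per Mb and the median 2.00 remote peaks for genes with eligible sequence. Of 35 limb mesenchyme transcription factors, 25 had eligible sequence and 22 at least 1 remote peak (62.9%, against 9.31% of all protein-coding genes). Among genes with eligible sequence, 22 of 25 on the list had a remote peak, against 73.1% of all 2647. The list had 359 remote peaks, 62.5 per Mb and a median of 12, and was not the densest of the lists. The libraries alone gave 94.6 per Mb and 86.4 per Mb, against 42.4 and 41.5 over all genes. Nr2f2, Sall1 and Tbx3 led this list, and Tbx4, a hindlimb factor, had 10 in 52.2 kb, all 119 to 131 kb downstream. Of 25 patterning signals and modulators 13 had a remote peak, with 150 in all and 54.7 per Mb. Bmp2 led with 25, followed by Cyp26b1, which degrades retinoic acid, with 20 in 173 kb (24 in each library alone).

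Of 20 cartilage and bone genes 8 had a remote peak, with 96 in all and 44.7 per Mb, led by Sox9 and by Matn1, a cartilage matrix protein gene, with 21. Of 20 surface ectoderm and apical ridge genes 6 did, with 43 and 59.1 per Mb, led by En1, a ventral ectoderm factor, with 15 and Tfap2c with 13. Of 15 muscle lineage genes 6 did, with 40 and 31.6 per Mb, led by Pax3, a factor of migrating muscle precursors, with 10 and Eya1 with 9. Of 18 endothelial genes 6 did, at 36.0 per Mb, led by Ets1 with 16 and Cdh5 with 14.

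Lists for other tissues were not uniformly low. Of 18 macrophage and leukocyte genes 2 had remote peaks, Maf with 20 and Ptprc with 11, at 37.6 per Mb. Of 16 neural genes 5 had them (29.0 per Mb), led by Isl1, also a factor of the hindlimb field, with 17 and Nkx6-1 with 14. Heart genes stood at 26.3 per Mb, with 13 for Gata6, and liver genes at 39.4 per Mb, with 18 for Foxa2. Of 16 housekeeping genes 1 had any eligible sequence, 0.00357 Mb, and none a remote peak. Counted over genes with eligible sequence, 13 of 17 patterning genes, 8 of 10 cartilage and bone genes and 6 of 7 ectoderm genes had a remote peak. So did 6 of 6 muscle, 6 of 6 endothelial and 2 of 2 macrophage genes. The same held for 5 of 7 neural, 4 of 4 heart and 3 of 3 liver genes, against 73.1% of all such genes. Each list rests on at most 25 genes with eligible sequence, some genes stand in several lists, and the lists were not tested against one another.

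Gene families differed in density as well. T-box genes had 77.8 remote peaks per Mb (7 of 12 genes), Sall genes 68.0, LIM homeobox genes 62.5, Iroquois genes 55.9 (6 of 6 genes), Bmp genes 55.1, Sox genes 45.7 and nuclear receptor genes 44.3. Some of these rest on few genes. Sall1 held 37 of the 51 of Sall genes, Bmp2 25 of the 38 of Bmp genes and Nr2f2 51 of the 94 of nuclear receptors. LIM homeobox genes had 19 in 0.304 Mb. Zeb and Zfhx genes had 38.0, Fgf ligands 34.7, forkhead genes 34.2, POU genes 33.6 and Slit and Robo genes 32.2. Below the average of all genes were potassium channels at 19 per Mb, collagens at 17.7, cadherins at 16.5, olfactory receptors at 14.2, vomeronasal receptors at 12.8 and protocadherins outside the clusters at 9.68. Wnt ligands had 1 remote peak in 0.0912 Mb, and their library peaks stood above the average of all genes in replicate 1 (65.8 per Mb, against 42.4) and below it in replicate 2 (21.9 per Mb, against 41.5). The ribosomal protein genes, which serve every cell, had 46.5 per Mb in 8 genes with eligible sequence, led by Rps24.

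Some long stretches were almost empty. Of 105 genes with at least 500 kb of eligible sequence 7 had no remote peak. Cylc2, a gene of the sperm head, had 800 kb with 0 peaks in replicate 1 and 1 in replicate 2, and G6pd2 had 777 kb with 0 and 0. Grik2, a glutamate receptor subunit gene, had 613 kb with 8 and 5 library peaks but no region found in both.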

How the data were processed

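DNase-seq libraries of 2 biological replicates of mouse limb form 1 group, per the labels. Alignment was to mm10 and each library had its own region calls, per the labels and the deposited descriptions. Not given in the sources used here are the aligner, the caller and the settings of both. The deposited peak lists give a signal value per peak that the authors did not define further in the sources used here. The deposited hotspot lists give a −log10 q value, whose highest value of 100 is read as a ceiling.

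Gene bodies and coding transcript starts came from GENCODE M21, and sequence from the RefSeq copy of GRCm38. Wilson and ratio intervals are at 95%. Words were searched on both strands of the central 150 bp, and in windows 500 bp to either side. Python 3.11.15, NumPy 2.4.6, pandas 2.3.3, SciPy 1.17.1 and numba 0.67.0 were used, and the overlap, distance and word functions were tested on simulated data. A peak class was compared over regions, with no test between groups, since there is 1 group. Chromosomes X and Y were left out by the rule on members.

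The regions, the 13 gene lists, the 20 gene families and the 28 words were chosen with earlier results of these data known. The values of the erythroid list, the densest of the 13 per Mb, are not reported here. Named were the 15 genes with the most remote peaks, the leading genes of each list, a fixed set of limb genes, the regions of highest signal, the 5 densest windows of 100 kb and the regions nearest to both distance limits. The intervals between coding genes, the empty stretches, the composite word and its sequences were chosen after values were seen. Alternatives were a 50% overlap, stronger peaks, hotspots, either replicate alone, other annotations of starts and genes, a 200 kb limit, other flanks and windows, other reaches, a 300 kb limit on gene assignment, and, added after seeing the data, no regions beside other starts and a G+C-weighted comparison.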

Additional observations from a re-analysis of the deposited data

How the results depend on the processing

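No paired analysis was possible because the labels give 1 group. The share of remote peaks (10.4%), density (27.6 per Mb), median percentile (mean of both libraries 52.9), CTCF share (3.61%), G+C (47.4%), share within 10 kb of another (62.4%) and genes with at least 1 (1935) changed as follows, the cause not being tested unless the setting itself fixes it. With a 50% overlap, density was 25.1 per Mb, CTCF 3.95% and the share within 10 kb 59.5%. With peaks above the median signal, the values were 7.91%, 12.1 per Mb, 73.9, 6.15%, 48.7%, 49.9% and 1453 genes. For the results named above, a value left out differed from the main one by less than the SD of the 2 libraries. A gene count left out differed by at most 1.5-fold, which is not the same as no change. With hotspots they were 11.3%, 25.5 per Mb, CTCF 3.10%, G+C 46.4% and 57%, and no signal percentile could be had. With 1 start per gene they were 10.6%, CTCF 3.78% and 62.6%. With only protein-coding bodies removed they were 12.6%, 29.2 per Mb and 64.9%. At 200 to 500 kb they were 5.21%, 23.6 per Mb, 51.3, 2.91%, 46.7%, 59.7% and 1095 genes. Without regions within 1 kb of a noncoding or RefSeq start they were 9.90%, 26.4 per Mb and 61.3%. Either replicate alone gave shares of 10.8% to 11%, 41.5 to 42.4 per Mb, percentiles of 37.0 to 39.2, CTCF of 2.46% to 2.65%, G+C of 46.7% to 47.0%, 73.7% to 74.1% within 10 kb and 2085 to 2089 genes. In the central 100 bp CTCF stood in 3.39% with a ratio of 90.2. Reaches of 5 and 20 kb gave 49.1% and 75.9%. Of 26 other sites, 14 had a ratio of at least 1.5 with an interval above 1. By the same limits 13 did against flanks 1000 bp away and 12 in the central 100 bp. In the G+C-weighted comparison 17 stood at 1.5 or more, REST among them. That count had no interval and is not comparable with the 14. Of 49 single-site alternatives 8 left the interval of the main ratio, and CATATG (0.907) and SOX (0.825) fell below 1 against flanks 1000 bp away.

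Presence in both libraries favours stronger peaks, so medians exceed those of either library alone. Depth is unknown, no read counts were used, and a missing peak does not show closed chromatin. RefSeq places 13.4% of remote peaks in a gene and 4.35% under 100 kb from an mRNA start. The central windows and words are short, and a match is no binding.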
